A study of Mus musculus with 96 samples.

Results

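The core spliceosome and SR protein genes are the genes for the proteins of the small nuclear ribonucleoprotein particles (snRNPs), for the SF3a and SF3b complexes, for the Prpf splicing factors, for the Lsm proteins and for the serine- and arginine-rich (SR) splicing regulators. They were taken by a rule on symbols (Snrp, Sf3a and Sf3b, Srsf, Prpf and Lsm1 to Lsm8, leaving out the imprinted Snrpn), which gave 52 of the 36935 symbols in the count table. The choice was made with earlier results of these data known. RNA was measured in individual mature oocytes, arrested at metaphase II (MII), and in individual 2-cell blastomeres from a mouse line with the P620A variant of Padi6, a gene for an oocyte protein of the cytoplasmic lattices.

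The table has 96 columns, each of them 1 library. Labels give 22 columns each to oocytes of Padi6+/+ females (MII_wt), oocytes of genotype Padi6P620A/P620A (MII_mut), Padi6+/+ 2-cell blastomeres (2cell_wt) and Padi6MatP620A/+ blastomeres, whose variant came from the mother (2cell_mut). The other 8 are negative controls. Females aged 4 to 8 weeks were superovulated with PMSG and hCG and killed about 13 hours after hCG, males were 8 to 12 weeks old, 2-cell embryos came from fertilisation in vitro, and polar bodies were discarded. Polyadenylated RNA was captured on oligo-dT beads after its separation from DNA, copied with template switching and amplified for 15 PCR cycles, so the snRNAs themselves, which carry no poly(A) tail, were not measured.

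Splicing removes introns from pre-mRNA. U1 and U2 snRNPs mark the splice sites, the U4/U6.U5 tri-snRNP joins them, and each snRNP is built on a ring of Sm proteins, or of Lsm proteins in U6. SR proteins bind exons and help to choose splice sites. A fully grown oocyte is transcriptionally silent and carries stored maternal mRNA, part of which is degraded around fertilisation, while the mouse embryo starts its main wave of transcription at the 2-cell stage.

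Stage labels were not used to form the main groups, because the libraries go against many of them. Of the 96 columns, 79 held at least 100000 counts and at least 4000 detected genes. A library was called oocyte-like when Mos, which encodes a kinase of the metaphase arrest, reached 100 CPM (counts scaled to a common library total), and 2-cell-like when Mos was under 100 CPM and Zfp352, an RNA of the 2-cell embryo, had a count. This gave 39 oocyte-like libraries (12 labelled MII_wt, 0 MII_mut, 14 2cell_wt, 9 2cell_mut and 4 negative control) and 39 2-cell-like libraries (7 MII_wt, 19 MII_mut, 0 2cell_wt, 11 2cell_mut and 2 negative control). The stage label therefore went against the class in 23 oocyte-like and 26 2-cell-like libraries. The lowest Mos level among oocyte-like libraries was 200.6 CPM and the highest among 2-cell-like libraries 63.3 CPM, and Zfp352 was at 0 in every oocyte-like library. A last library, number 86, labelled 2cell_mut, had neither RNA. Its oocyte markers were at 0.00796% of counts and its cumulus markers at 0.870%. No columns held identical values.

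Total counts ran from 162539 to 5762563 (median 3235838) in oocyte-like and from 503644 to 3185910 (median 1608305) in 2-cell-like libraries, with a median of 13671 and 10370 detected genes. All 12 oocyte markers listed were present at 10 CPM or more in both classes, at a median of 4.24% and 1.18% of counts. Cumulus and granulosa cells are somatic cells of the follicle, and the share of their markers moved with the class: they made up 0.0526% to 1.40% (median 0.119%) of counts in oocyte-like and 0 to 0.0287% (median 0.0116%) in 2-cell-like libraries. In the oocyte-like pool 20 of 20 of these markers had counts and 15 reached 10 CPM. In the 2-cell-like pool 16 had counts, 2 reached 10 CPM, and Foxl2, Hsd17b1, Ptx3 and Thbs1 were at 0. Mitochondrially encoded RNA was higher in 2-cell-like libraries (0.600% to 6.67%) than in oocyte-like ones (0.0295% to 0.592%).

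Promoters of 4 members are printed because the members lie at opposite ends of the comparison between the classes. Snrpc and Snrpe were higher in 2-cell-like libraries, and Lsm5 and Prpf6 were lower. The members were picked after their values were seen. Each sequence is the 250 bases upstream of the gene's start, 5′ to 3′ on the gene's strand, from RefSeq on GRCm38.p6: chr17:27839837-27840086 (+) for Snrpc, chr1:133610281-133610530 (-) for Snrpe, chr6:56704700-56704949 (-) for Lsm5 and chr2:181601069-181601318 (+) for Prpf6. Capitals mark matches, on either strand, to the 6 motifs searched.
Snrpc: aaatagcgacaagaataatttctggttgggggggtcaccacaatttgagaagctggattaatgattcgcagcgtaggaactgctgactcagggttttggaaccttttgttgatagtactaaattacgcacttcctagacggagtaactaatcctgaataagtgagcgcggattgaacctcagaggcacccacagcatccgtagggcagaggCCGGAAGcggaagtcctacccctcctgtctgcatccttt
Snrpe: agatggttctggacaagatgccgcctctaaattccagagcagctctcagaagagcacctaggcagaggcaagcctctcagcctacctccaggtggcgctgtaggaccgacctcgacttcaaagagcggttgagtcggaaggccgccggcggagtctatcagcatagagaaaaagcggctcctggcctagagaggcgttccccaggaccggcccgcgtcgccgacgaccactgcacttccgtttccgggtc
Lsm5: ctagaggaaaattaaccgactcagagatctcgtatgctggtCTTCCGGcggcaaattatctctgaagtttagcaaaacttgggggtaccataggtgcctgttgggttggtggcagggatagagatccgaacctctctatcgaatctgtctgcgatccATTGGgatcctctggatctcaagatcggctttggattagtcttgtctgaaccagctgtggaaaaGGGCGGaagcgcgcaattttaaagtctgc
Prpf6: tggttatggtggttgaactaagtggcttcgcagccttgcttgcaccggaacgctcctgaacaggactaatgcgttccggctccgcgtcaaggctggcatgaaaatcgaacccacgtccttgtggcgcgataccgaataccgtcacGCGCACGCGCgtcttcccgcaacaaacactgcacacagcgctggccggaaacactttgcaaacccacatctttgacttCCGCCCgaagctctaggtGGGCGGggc

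The motifs were the TATA box (TATAAA), the CCAAT box (CCAAT), the GC box (GGGCGG), the ETS core (CCGGAAG), the E-box (CACGTG) and NRF1 (GCGC, any base, then TGCGC), and matches could overlap. Snrpc holds 1 ETS core, Lsm5 holds 1 ETS core, 1 CCAAT box and 1 GC box, Prpf6 holds 2 GC boxes and 1 NRF1 motif, and Snrpe holds none of these letters. The table had a promoter for 44 of the 52 members. The ETS core was found in 38.6% of them and in 7.83% of all 27025 genes of the promoter table, the GC box in 68.2% and 35.4%, and NRF1 in 25.0% and 4.23%. A gene with several promoters counted once if any of them held the motif, and the genes were not filtered by expression. For the TATA box the shares were 9.09% and 14.3%, for the CCAAT box 36.4% and 37.5%, and for the E-box 9.09% and 6.86%. Members' promoters were also richer in G and C (median 60.4% against 52.4%), and motif shares were not corrected for this. Among members with a promoter that were at least 2-fold higher in 2-cell-like libraries, 4 of 9 held the ETS core and 0 of 9 the NRF1 motif. Among those at least 2-fold lower the numbers were 5 of 10 and 4 of 10. Of the 22 members between, 36.4% held the ETS core and 27.3% the NRF1 motif. The GC box was in 33.3% of the higher members, 70% of the lower and 77.3% of those between. Motif shares over all higher or all lower genes were not counted.

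Summed over all 52 members, the share of counts had nearly the same median in both classes, while single roles did not. Shares and CPM are relative to a library's total and do not measure RNA per cell. The members took 0.365% to 0.666% (median 0.503%) of counts in oocyte-like and 0.339% to 0.778% (median 0.508%) in 2-cell-like libraries. The genes of SF3a and SF3b, the parts of U2 snRNP that hold the branch point, took the larger share in oocyte-like libraries, at 0.104% to 0.215% (median 0.145%) against 0.0247% to 0.117% (median 0.0663%). Of the 39 2-cell-like libraries, 36 lay below every oocyte-like library in this share, to which Sf3b1 adds most. Sm genes lay on the other side, at 0.0653% to 0.300% (median 0.128%) against 0.111% to 0.502% (median 0.254%), and 12 2-cell-like libraries were above every oocyte-like one. Snrpe adds most to this share (396 and 1401 CPM pooled), while the median log2 ratio of the Sm genes was -0.0047. Lsm genes had medians of 0.0227% and 0.0514%, Prpf genes 0.121% and 0.0533%, SR genes 0.0448% and 0.0687%, and U1 and U2 protein genes 0.0258% and 0.0192%, with overlapping ranges.

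**Figure D1:**
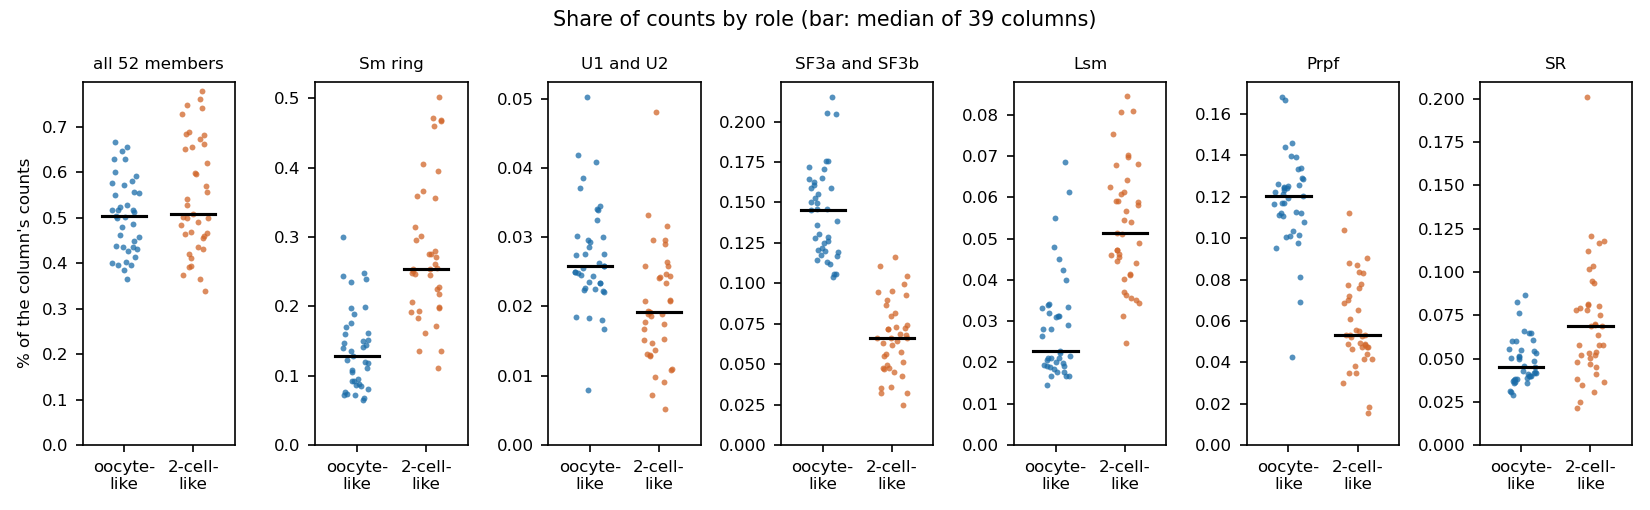
Share of each library's counts, in percent, taken by all 52 members and by each role, in 39 oocyte-like (blue) and 39 2-cell-like (orange) libraries; each point is 1 library and the bar is the median. The median of all members is nearly the same (0.503% and 0.508%), while 36 of 39 2-cell-like libraries lie below every oocyte-like library for SF3a and SF3b.

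Gene by gene, pooled levels were compared as the ratio of 2-cell-like to oocyte-like CPM, and a member is called higher, or lower, where the levels were 2-fold or more apart. A gene entered when its pooled level was at least 10 CPM in 1 class and it had a count in at least 50% of that class's libraries. This held for 49 of 52 members, all but Prpf40b, Srsf9 and Srsf12, and 43 members reached 10 CPM in both classes. Lsm4, Lsm5, Prpf3, Prpf4, Sf3b4 and Snrpc passed only through the class where they were high. All of these are past 2-fold, and they include the members with the largest and the smallest ratio. Single cells with no animal named make each class 1 sample, so no test was run. Intervals are 95% and cover counting error only, since amplified reads with no molecular identifier do not each stand for 1 molecule. Of the 49 members, 10 were higher and 12 lower in 2-cell-like libraries, or 20.4% and 24.5%. Among all 9677 genes compared 20.9% were higher and 27.8% lower, so the counts of members are near the background and are no result about the members. Counts by role, given below, rest on few genes each and have the same background. The members' median log2 ratio was 0.17 and that of all genes -0.08. Of all genes past 2-fold 43.0% were higher, which became 33.4% with TMM scaling and 29.2% with DESeq2 size factors. Under both of these Lsm2, Prpf4, Snrpc, Snrpe and Snrpf were still at least 2-fold higher, while Lsm1, Prpf19, Snrpg, Srsf1 and Srsf7 were not. No member separated the classes completely, and 0.434% of all genes did.

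**Figure D2:**
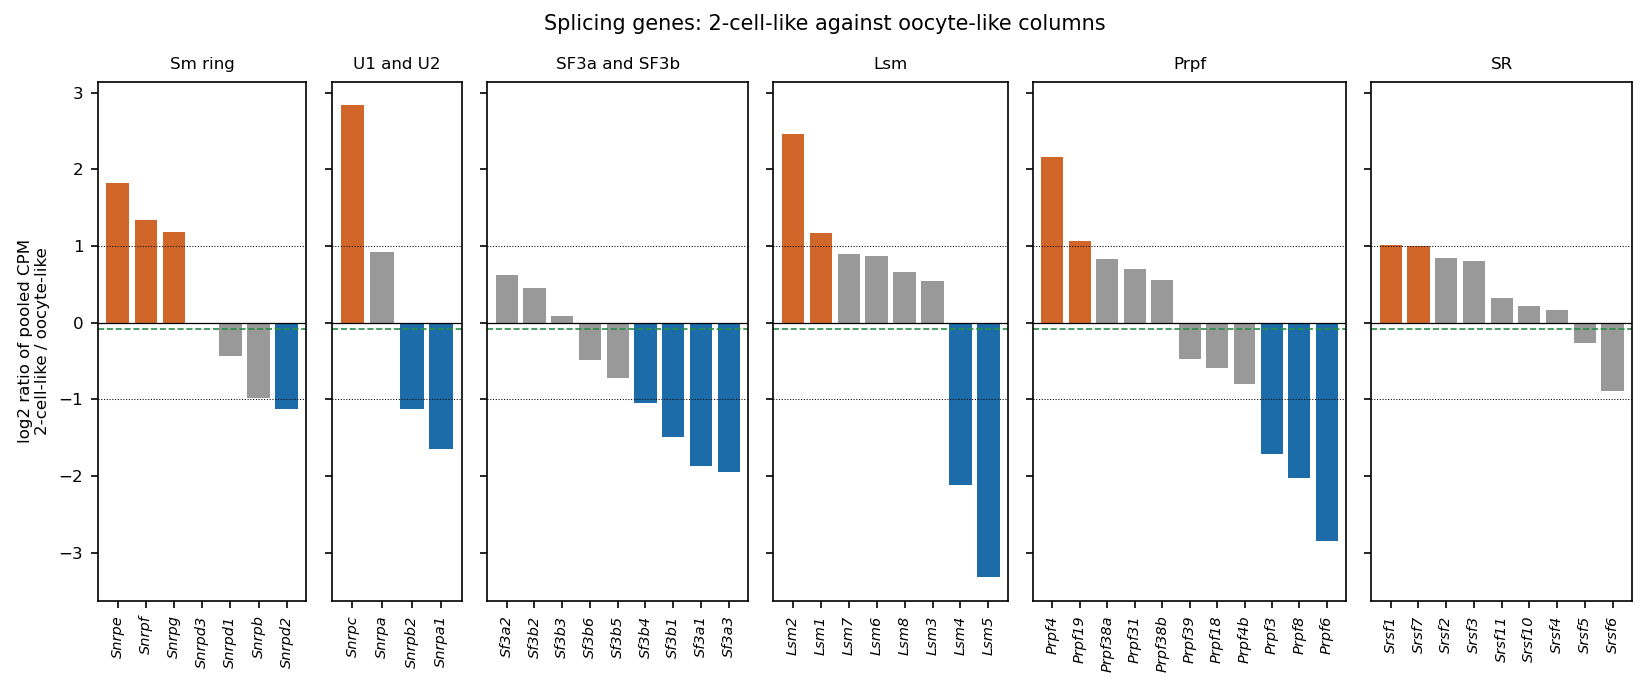
Log2 ratio of pooled CPM, 2-cell-like over oocyte-like, for 48 of the 49 members compared, by role. Orange bars are at least 2-fold higher and blue bars at least 2-fold lower, dotted lines mark 2-fold and the dashed line is the median of all genes (-0.08). Blue bars are 4 SF3a and SF3b genes and 0 SR genes among others, where 27.8% of all genes were at least 2-fold lower.

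The Sm ring is the protein ring on which U1, U2, U4 and U5 snRNPs are assembled. Of its 7 genes, 3 were higher in 2-cell-like libraries and 1 was lower. Snrpe ran from 18.5 to 934 CPM (median 328) in oocyte-like and from 393 to 3677 CPM (median 1076) in 2-cell-like libraries. The pooled levels were 396 and 1401 CPM, a ratio of 3.54 (interval 3.50 to 3.58), and 22 of 39 2-cell-like libraries lay above every oocyte-like one. Snrpf ran from 52.2 to 184 CPM (median 88.3) and from 96.6 to 509 CPM (median 205), a pooled ratio of 2.52 (2.46 to 2.58), with 25 2-cell-like libraries above every oocyte-like one. Snrpg ran from 85.1 to 1001 CPM (median 204) and from 243 to 1369 CPM (median 567.7), a ratio of 2.27 (2.23 to 2.30). In all 3 genes the low end of the 2-cell-like range still reached into the oocyte-like range. Snrpd3 was level, at 314 and 313 CPM in the pools (ratio 0.997, 0.980 to 1.01). Snrpd1 was at 259 and 191 CPM. Per kilobase of transcript, Snrpe had the highest pooled level of the ring in both classes (787 and 2786 CPM per kb) and Snrpd2 the lowest (22.5 and 10.3 CPM per kb). Small Sm genes have processed pseudogene copies, and reads shared with such copies cannot be told apart in this table.

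Snrpd2 was counted as lower (31.9 and 14.6 CPM pooled, 2.18-fold lower, 2.03 to 2.35), and Snrpb lay just inside 2-fold (42.7 and 21.5 CPM). Their medians differed less: 12.3 and 11.6 CPM for Snrpd2, 11.5 and 6.38 CPM for Snrpb. Their highest values were in oocyte-like libraries with much cumulus marker RNA. In all, 11 oocyte-like libraries had cumulus markers at 0.2% of counts or more, and these included the 5 highest for Snrpb, the 5 highest for Snrpd2 and 4 of the 5 highest for Lsm4. Snrpb ran from 55.5 to 338 CPM in those 11 and from 0 to 36.5 CPM in the other 28, so the ranges did not overlap. Snrpd2 ran from 18.2 to 240 CPM and from 0 to 57.6 CPM, and Lsm4 from 21.8 to 278 CPM and from 0.463 to 139 CPM. Library 86, with neither oocyte nor 2-cell RNA, held Snrpb at 741 CPM, Lsm4 at 343 CPM and Snrpd2 at 272 CPM. With the 11 libraries left out, a cut chosen after the values were seen, the log2 ratio of Snrpb went from -0.99 to 1.24, that of Snrpd2 from -1.13 to 0.39 and that of Lsm4 from -2.12 to -1.12. In the pools Snrpb was then at least 2-fold higher in 2-cell-like libraries, as were Lsm6, Lsm8, Prpf31, Snrpa and Srsf2. Medians of the 28 and of the 2-cell-like libraries were close for Snrpb (5.85 and 6.38 CPM) and Prpf31 (8.96 and 9.80 CPM). They were further apart for Lsm6 (14.1 and 44.1 CPM), Lsm8 (9.71 and 22.6 CPM), Snrpa (14.8 and 36.7 CPM) and Srsf2 (27.8 and 63.1 CPM). The cut made 16 members higher and 10 lower, where 26.1% and 21.9% of all genes were. Without library 61 alone Snrpd2 was 1.79-fold lower, and library 17 was the other whose removal took it under 2-fold. The part of cumulus RNA in these values was not tested. Snrpe, with 0 of its 5 highest libraries among the 11, went from 1.82 to 1.79.

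**Figure D3:**
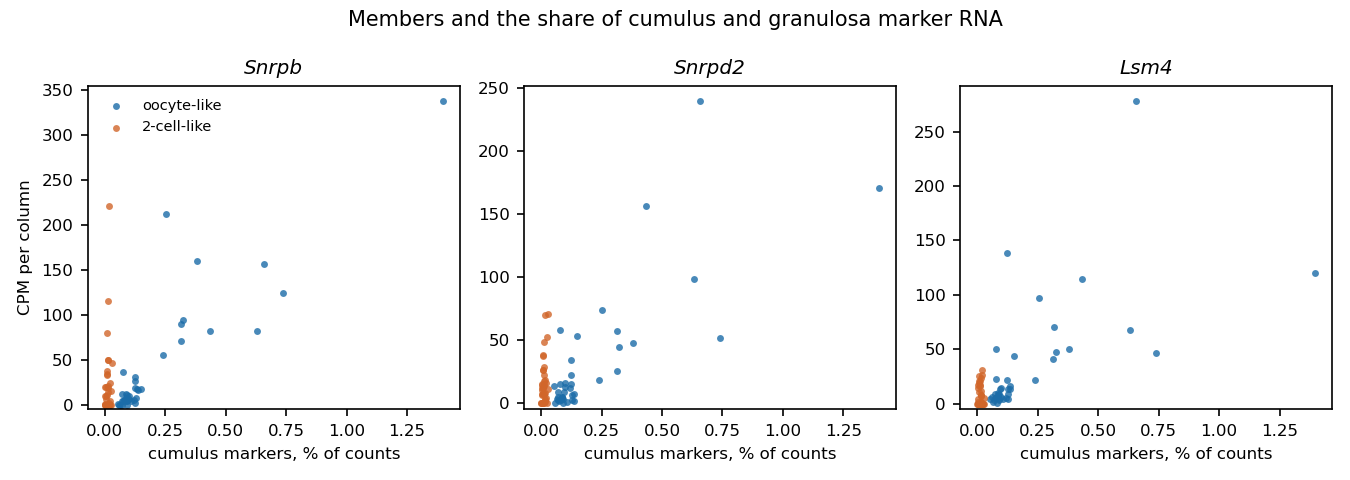
CPM of Snrpb, Snrpd2 and Lsm4 in each library against the percentage of counts that fall on cumulus and granulosa markers; blue points are oocyte-like and orange points 2-cell-like libraries. All 5 highest oocyte-like values of Snrpb and of Snrpd2 lie at 0.2% or more.

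The genes of the U1 and U2 proteins lay on both sides. Snrpc, the U1 protein that contacts the 5′ splice site duplex, had the largest ratio of all members. It ran from 0 to 33.8 CPM (median 5.66) in oocyte-like and from 0 to 246 CPM (median 34.0) in 2-cell-like libraries. The pooled levels of 6.91 and 49.4 CPM gave a ratio of 7.14 (6.60 to 7.74), and 20 2-cell-like libraries lay above every oocyte-like one. Snrpa, the other U1 protein, was at 20.6 and 39.0 CPM (ratio 1.89). Both U2 proteins were lower. Snrpa1 ran from 13.6 to 146 CPM (median 71.7) and from 0 to 139 CPM (median 23.6) and was 3.13-fold lower (2.97 to 3.29). Snrpb2 ran from 30.8 to 346 CPM (median 165) and from 0 to 217 CPM (median 71.6) and was 2.18-fold lower (2.11 to 2.24). Snrnp70, the third U1 protein, is outside the symbol rule and was 2.29-fold lower (44.3 and 19.3 CPM).

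Of the 9 SF3a and SF3b genes, 4 were lower in 2-cell-like libraries and 0 were higher. Sf3a3 ran from 57.3 to 184 CPM (median 87.9) in oocyte-like and from 0 to 99.7 CPM (median 23.8) in 2-cell-like libraries. It was 3.87-fold lower (3.67 to 4.08), and 35 of 39 2-cell-like libraries lay below every oocyte-like one, the most of any member. Sf3a1 ran from 12.0 to 203 CPM (median 131) and from 0 to 173 CPM (median 20.9) and was 3.66-fold lower (3.50 to 3.83). Sf3b1, the subunit that clamps the branch point helix and the most abundant gene of the group, ran from 399.9 to 1694 CPM (median 806) and from 0 to 881 CPM (median 284). Its pooled levels were 944 and 337 CPM, 2.81-fold lower (2.77 to 2.85), and 28 2-cell-like libraries lay below every oocyte-like one. Sf3b4 was low in both classes (16.6 and 8.06 CPM, 2.06-fold lower, 1.87 to 2.28), and without library 61 its log2 ratio went from -1.04 to -0.90; leaving out library 31, 40 or 43, or the 11 cumulus-rich libraries (1.66-fold lower), also took it under 2-fold. The other 5 genes lay between, from Sf3b5 (128 and 77.3 CPM) to Sf3a2 (27.6 and 42.2 CPM, ratio 1.53), so ratios of subunits of the same complex lay on both sides of 1. Phf5a, a small SF3b subunit whose symbol lies outside the rule, was 5.68-fold higher in 2-cell-like libraries (61.5 and 350 CPM). It was singled out after its value was seen.

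Lsm2 to Lsm8 form the ring on U6 snRNA, and Lsm1 to Lsm7 a cytoplasmic ring that activates mRNA decapping. Lsm genes lay at both ends of the ratios. Lsm2 ran from 0 to 35.1 CPM (median 13.9) in oocyte-like and from 7.12 to 187 CPM (median 72.3) in 2-cell-like libraries. Its pooled ratio was 5.53 (5.22 to 5.86), and 32 of 39 2-cell-like libraries lay above every oocyte-like one. Lsm5 had the smallest ratio of all members. It ran from 4.25 to 66.1 CPM (median 19.8) and from 0 to 10.3 CPM (median 1.09), with 25 of 39 2-cell-like libraries holding any count. It was 9.98-fold lower (8.38 to 12.0), and 31 2-cell-like libraries lay below every oocyte-like one. Per kilobase of transcript, Lsm2 went from 15.8 to 87.4 CPM per kb and Lsm5 from 41.4 to 4.15 CPM per kb, so their order was inverted, although both proteins sit in the same rings. Lsm1, found only in the decapping ring, ran from 14.6 to 210 CPM (median 92.2) and from 60.9 to 462 CPM (median 213), a ratio of 2.25 (2.19 to 2.31). Lsm8, found only in the U6 ring, was at 17.7 and 27.8 CPM (ratio 1.58). Its 5 highest oocyte-like libraries were all cumulus-rich, and without the 11 such libraries its ratio was 3.09 (2.83 to 3.36). Lsm4 was 4.35-fold lower (33.7 and 7.74 CPM, 3.97 to 4.79), and it was among the genes that were high in cumulus-rich libraries. Within columns labelled 2cell_mut it was level, at 9.74 and 9.61 CPM, and missed the filter of 10 CPM. Lsm3, Lsm6 and Lsm7 had ratios from 1.46 to 1.86.

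**Figure D4:**
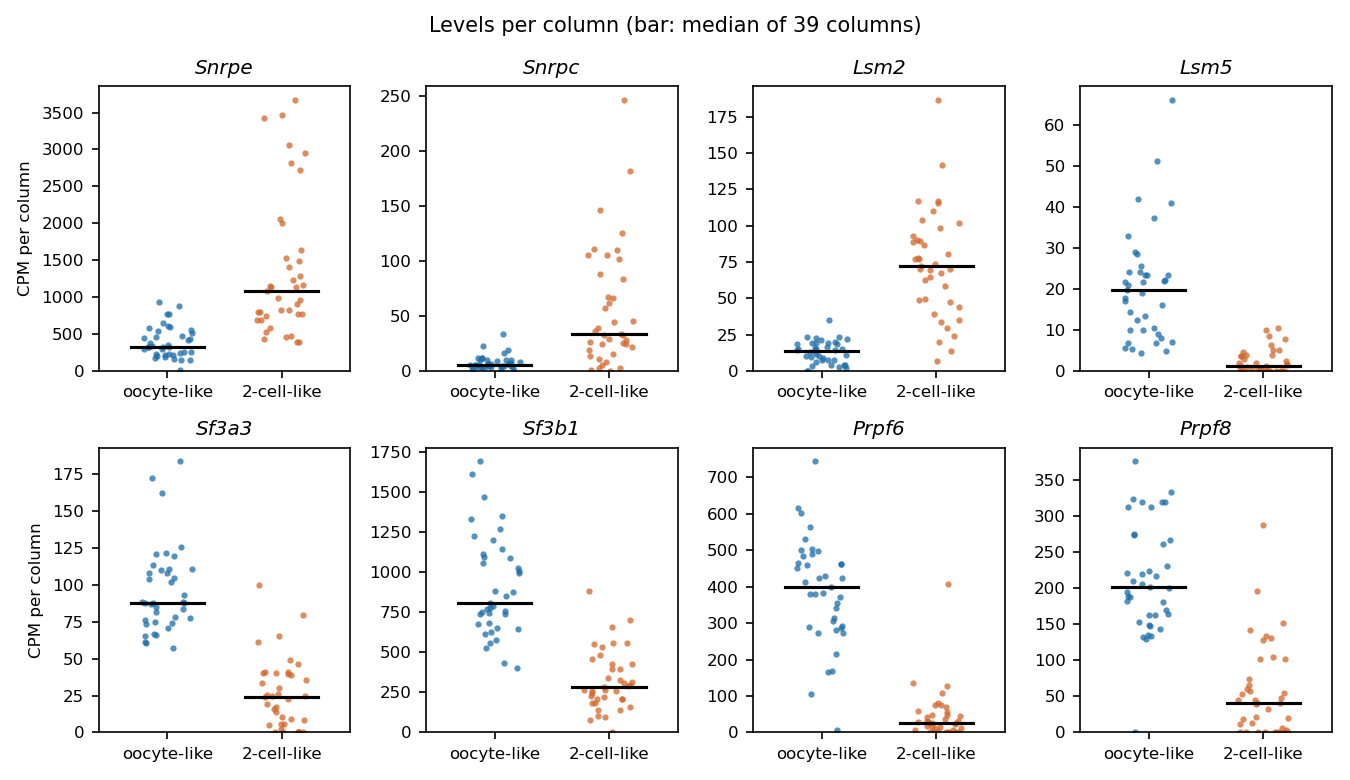
CPM in each oocyte-like (blue) and 2-cell-like (orange) library for 8 members; each point is 1 library, bars are medians of 39 libraries and axes differ between genes. Lsm2 and Snrpc are higher and Lsm5, Sf3a3 and Sf3b1 lower in most 2-cell-like libraries, and single libraries cross the ranges, such as the highest 2-cell-like point of Prpf6 at 408 CPM.

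Prpf genes encode proteins of the tri-snRNP and of the complexes that activate the spliceosome. Of 12 compared, 2 were higher and 3 lower. Prpf6, a bridge between U5 and U4/U6, ran from 6.54 to 744 CPM (median 398) in oocyte-like and from 0 to 408 CPM (median 26.9) in 2-cell-like libraries. It was 7.20-fold lower (6.95 to 7.46) and 10.3-fold lower without library 45, a 2-cell-like library labelled MII_mut that held the 408 CPM. The lowest oocyte-like value came from library 23, labelled negative control, with the next lowest at 105 CPM. Prpf8, the scaffold of the catalytic centre, ran from 0 to 376 CPM (median 201) and from 0 to 288 CPM (median 41.3) and was 4.07-fold lower (3.93 to 4.21). The 0 was again library 23, and the next lowest oocyte-like library held 129 CPM. Prpf3, a U4/U6 protein, ran from 0 to 58.3 CPM (median 17.2) and from 0 to 48.4 CPM (median 0.467) and was 3.29-fold lower (2.97 to 3.66). Its U4/U6 partner Prpf4 went the other way from a low level (2.77 and 12.4 CPM pooled), with medians of 0.735 and 4.85 CPM and a ratio of 4.47 (3.92 to 5.11), which was 7.47 without library 61 and 11.1 without the 11 cumulus-rich libraries. Prpf19, a ubiquitin ligase that helps to activate the spliceosome, ran from 10.6 to 78.9 CPM (median 30.7) and from 0 to 258 CPM (median 54.3), a ratio of 2.09 (2.01 to 2.18) that was 1.96 without library 43 and also under 2 without library 31 or 74. The other members were within 2-fold in the pools, among them Prpf38a, with a log2 ratio of 0.83, and Prpf4b, with one of -0.80. Medians of Prpf4b were further apart, at 18.6 and 2.32 CPM. It had a count in 28 of 39 2-cell-like libraries, the highest of them at 88.5 CPM.

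SR genes had the narrowest range of pooled log2 ratios of the roles, from -0.89 to 1.01. Of 9 compared, 2 were just past 2-fold higher and 0 were lower, where 20.9% and 27.8% of all genes were. Srsf1 ran from 0 to 49.4 CPM (median 16.9) and from 0 to 201 CPM (median 29.1), a ratio of 2.02 (1.91 to 2.13). Srsf7 ran from 29.7 to 171 CPM (median 64.3) and from 0 to 482 CPM (median 107), a ratio of 2.01 (1.94 to 2.07). Without library 36 the log2 ratio of Srsf1 was 0.81, and without library 41 that of Srsf7 was 0.88. Leaving out any 1 of 21 libraries took Srsf1 under 2-fold, and any 1 of 30 did so for Srsf7. Srsf3, the SR gene with the highest level per kilobase in both classes (41.4 and 72.6 CPM per kb), had a ratio of 1.75. Srsf6 had the smallest ratio (23.6 and 12.7 CPM, log2 -0.89); its medians were 19.7 and 1.39 CPM, and 21 of 39 2-cell-like libraries held any count. Srsf4, Srsf5, Srsf10 and Srsf11 had ratios from 0.829 to 1.25. Srsf12 was at or near 0 in both classes.

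The comparison could be repeated inside single labels, since columns labelled MII_wt and 2cell_mut each held both classes and share no library. Among MII_wt columns (12 oocyte-like, 7 2-cell-like), 8 of 49 members were higher and 15 lower, where 22.6% and 33.9% of all genes were. Among 2cell_mut columns (9 and 11), 17 of 49 were higher and 13 lower, where 30.6% and 26.2% of all genes were. Of 48 members compared in both, 7 were higher in both: Lsm1, Lsm2, Lsm7, Snrpc, Snrpe, Snrpf and Srsf9. These were 87.5% of the 8 higher under MII_wt and 43.8% of the 16 higher under 2cell_mut. The same shares over all genes were 77.4% and 62.7%. Another 10 members were lower in both: Lsm5, Prpf4b, Prpf6, Prpf8, Sf3a1, Sf3a3, Sf3b1, Sf3b4, Snrpa1 and Snrpb2, or 71.4% of 14 and 76.9% of 13. Over all genes the shares for lower were 63.2% and 77.0%. Higher in both were 14.6% of members and 16.8% of all genes, and lower in both 20.8% and 20.9%, so members were again near the background. Srsf9 and Snrpc passed the filter under both labels only through the 2-cell-like libraries, where they were higher. Lsm5, Prpf4b and Sf3b4 passed only through the oocyte-like ones, where they were higher. Srsf9 was at 7.66 and 18.1 CPM under MII_wt and at 5.26 and 11.8 CPM under 2cell_mut. Over all libraries Srsf9 missed the filter, at a ratio of 0.998. Snrpb and Snrpd2 went opposite ways past 2-fold in the pools of the 2 labels: Snrpd2 had log2 ratios of -1.86 and 1.42 and Snrpb of -1.06 and 1.91. Such opposite ratios were found for 4.17% of the 48 members and 1.61% of 8629 genes. Medians under MII_wt were close, at 8.93 and 9.90 CPM for Snrpd2 and 5.92 and 6.38 CPM for Snrpb. Under 2cell_mut they were 8.78 and 25.9 CPM for Snrpd2 and 5.55 and 33.1 CPM for Snrpb.

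Inside a label, some members separated the classes with no overlap. Under MII_wt these were 6 of 49 members (Lsm2, Snrpc, Prpf6, Sf3a1, Sf3a3 and Sf3b1), where 11.1% of all genes did so. Under 2cell_mut they were 5 (Lsm1, Lsm2, Snrpc, Prpf6 and Sf3b1), where 6.74% of all genes did. Lsm2 ran from 2.00 to 23.3 CPM in oocyte-like and from 58.4 to 142 CPM in 2-cell-like MII_wt columns, and from 0 to 19.8 CPM and from 33.6 to 115 CPM in 2cell_mut columns. Snrpc ran from 0 to 19.2 CPM and from 29.0 to 181 CPM under MII_wt, and from 3.92 to 16.2 CPM and from 32.2 to 246 CPM under 2cell_mut. Prpf6 ran from 166 to 462 CPM and from 0 to 109 CPM under MII_wt, and from 272 to 602 CPM and from 0 to 76.5 CPM under 2cell_mut. Sf3b1 ran from 776 to 1694 CPM and from 181 to 701 CPM under MII_wt, and from 578 to 1470 CPM and from 0 to 557 CPM under 2cell_mut. These 4 genes thus separated the classes under both labels. How many of all genes did so under both was not counted, so this is no result about the members. Sf3a1 did so under MII_wt, where it was 10.5-fold lower (8.82 to 12.6), and overlapped under 2cell_mut, where it was 2.13-fold lower (1.98 to 2.29).

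**Figure D5:**
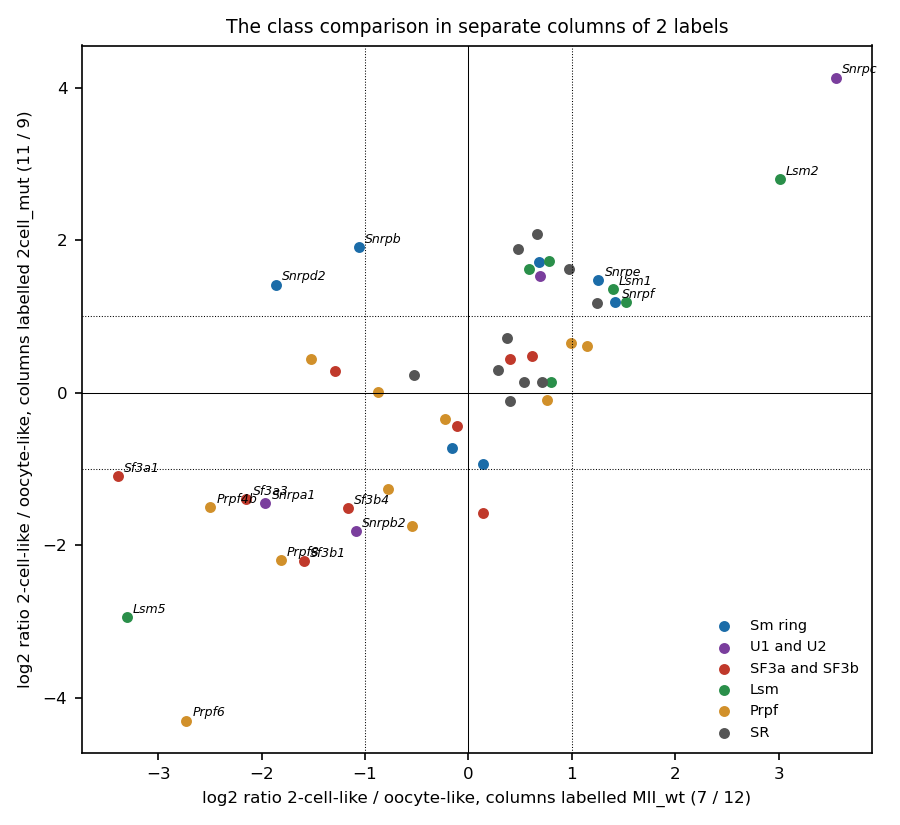
Log2 ratio of 2-cell-like over oocyte-like CPM for the 48 members compared under both labels: columns labelled MII_wt on the x axis (7 over 12 libraries) and 2cell_mut on the y axis (11 over 9), coloured by role, dotted lines at 2-fold. Snrpc and Lsm2 lie at the upper right, Prpf6 and Lsm5 at the lower left, and Snrpb and Snrpd2 at the upper left.

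The genotype labels, mutant over wild type, were compared inside each class. Since many stage labels go against the RNA and libraries labelled negative control hold RNA like that of cells, column labels may have been exchanged, which was not tested. Genotype was not checked in these counts, so each ratio compares libraries by their label and may not compare genotypes. Among oocyte-like libraries (26 labelled wild type, 9 mutant, all of the latter 2cell_mut), 0 of 48 members were higher and 6 lower, where 0.429% and 15.8% of all genes were. The lowest were Lsm4 (42.2 and 9.74 CPM, 4.33-fold lower, 3.81 to 4.95), Snrpb (56.5 and 13.1 CPM, 4.33-fold, 3.87 to 4.85) and Snrpd2 (40.6 and 10.1 CPM, 4.00-fold, 3.53 to 4.56). All 3, like Srsf6, Srsf9 and several other members, had their highest oocyte-like values mostly or entirely in cumulus-rich libraries, and 9 of the 26 wild-type but 1 of the 9 mutant libraries had cumulus markers at 0.2% or more. Without those libraries 2 members (Lsm4 and Lsm6) were lower instead of 6, and the share of all genes that were lower was 2.84% in place of 15.8%. The part of cumulus RNA in the difference was not tested. Lsm6, Srsf9 and Srsf6 were the other 3 lower members (log2 ratios of -1.54, -1.14 and -1.07); Srsf9 was 1.83-fold lower without library 85 and Srsf6 1.81-fold lower without library 91. Snrpb was 8.62-fold lower without library 87 and 2.98-fold lower without library 61. The highest were Snrpb2, Snrpd3 and Snrpa1, at ratios of 1.42, 1.38 and 1.27. Every member's ranges overlapped between the labels.

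Among 2-cell-like libraries (7 wild type, all MII_wt, and 30 mutant), 5 of 48 members were higher and 3 lower under the mutant label, where 18.6% and 6.32% of all genes were. By per-library medians the share of higher among all genes past 2-fold was 54.3% and not 74.6%. Prpf31, a U4/U6 protein, was at 4.78 and 26.7 CPM (ratio 5.60, 4.28 to 7.45) and ran from 0 to 28.3 CPM and from 0 to 121 CPM. Prpf4b, a splicing-associated kinase, was at 3.50 and 12.3 CPM (ratio 3.51, 2.56 to 4.94), and Sf3a1 at 11.4 and 39.3 CPM (ratio 3.46, 2.90 to 4.16). The lowest were Srsf6 (30.9 and 8.11 CPM, 3.81-fold lower), Prpf3 (12.8 and 4.95 CPM, 2.59-fold lower) and Srsf9 (18.1 and 7.33 CPM, 2.47-fold lower). Single libraries carried part of this: Prpf31 was at a ratio of 11.0 without library 2, and Prpf4b at 5.95 without library 4. Sf3a1 was at 5.66 without library 2, Snrpb at 3.87 without library 6 and 1.70 without library 8, and not 2.11, and Srsf11 at 1.55 and not 2.18 without library 41. Prpf3 was 1.35-fold lower without library 7, Srsf6 2.19-fold lower without library 8, and Srsf9 1.90-fold lower without library 5. Ranges again overlapped for every member, and the mutant group mixes libraries labelled oocyte and 2-cell.

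The genotype labels were also compared inside each stage label, where they overlap with the classes. Among columns labelled oocyte (19 MII_wt, of which 12 were oocyte-like, and 19 MII_mut, all 2-cell-like), 4 of 49 members were higher and 11 lower, where 16.8% and 22.7% of all genes were. With TMM scaling 1 was higher and 17 lower. Lsm5 was lowest (19.2 and 1.68 CPM, 11.5-fold lower), then Prpf6 (275 and 61.0 CPM, 4.50-fold, and 8.58-fold without library 45) and Srsf6 (25.2 and 6.49 CPM, 3.88-fold, and 6.14-fold without library 28). Prpf31, Snrpe and Lsm2 were highest, at log2 ratios of 1.37, 1.17 and 1.16. Among columns labelled 2-cell (14 2cell_wt, all oocyte-like, and 21 2cell_mut, of which 9 were oocyte-like), 4 of 50 members were higher and 1 lower, where 7.88% and 11.8% of all genes were. With DESeq2 size factors 1 was higher and 2 were lower. Snrpc was highest (7.91 and 38.0 CPM, ratio 4.80, 4.24 to 5.45), then Snrpg (ratio 2.19) and Snrpe (ratio 2.09, and 1.70 without library 88). Lsm4 was lowest (2.02-fold lower, and 5.94-fold without library 86), followed by Sf3b4 and Prpf3 at 1.99-fold and 1.69-fold lower. In these comparisons the genotype label is partly confounded with the class. Lsm5, for instance, had a median of 22.6 CPM in oocyte-like and 2.03 CPM in 2-cell-like MII_wt columns, and of 0.615 CPM in MII_mut columns. Snrpc had a median of 6.25 CPM in 2cell_wt columns, and of 4.66 CPM in oocyte-like and 88.0 CPM in 2-cell-like 2cell_mut columns.

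Other genes of the splicing pathway, in lists drawn up for function, were described for the classes against the background of 20.9% higher and 27.8% lower. Of 41 further spliceosome genes 7 were higher and 12 lower, from Rbmx2 (6.23 and 42.9 CPM) to Eftud2 (84.3 and 11.0 CPM). Eftud2, Snrnp200 and Snrnp40 encode U5 proteins that work with Prpf8 and Prpf6, and were 7.65-fold, 5.49-fold and 3.79-fold lower; they were singled out after their values were seen. Of 8 genes of the minor spliceosome, which removes a rare class of introns, 2 were higher and 3 lower, from Snrnp25 (9.95 and 43.3 CPM) to Zcrb1 (70.2 and 12.6 CPM). Of 7 exon junction complex genes 2 were higher (the highest Rbm8a, ratio 3.85) and 1 lower (Acin1, 2.83-fold). Kinases that phosphorylate SR proteins included Clk1, at 394 and 72.5 CPM, and Clk4, at 10.4 and 34.6 CPM, with 1 higher and 2 lower of 6. Of 16 SR-related genes 1 was higher (Rsrc2, log2 ratio 1.07) and 5 lower (the lowest Rsrc1, 4.20-fold). HnRNP genes were mostly within 2-fold, 21 of 26, with Syncrip highest (7.53 and 17.0 CPM) and Hnrnpk lowest (696 and 214 CPM).

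Genes of snRNP assembly, which load the Sm ring and return snRNPs to the nucleus, numbered 5 higher and 4 lower of 16. Coil, the scaffold of Cajal bodies, was highest (3.63 and 23.8 CPM), and Snupn, the import adaptor of snRNPs, lowest (106 and 19.7 CPM). Of 10 decapping partners of the Lsm1 to Lsm7 ring, 2 were higher and 4 lower. Dcp2, the decapping enzyme itself, was highest (103 and 294 CPM, with 31 2-cell-like libraries above every oocyte-like one), and Patl2 lowest (12.4 and 1.70 CPM).

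Transcript length was one measure that the symbol rule did not use. Across 49 members the log2 ratio had a Spearman correlation of -0.23 with the length of the transcript with the longest coding part, as a description over genes that share the same libraries, and across 8760 genes with a length it was -0.0037. Members higher in 2-cell-like libraries had a median length of 1132 bases, those lower 1988 bases and those between 3026 bases. All genes compared had the same order, with medians of 2555, 2787 and 3254 bases.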

How the data were processed

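The deposited table holds raw read counts per gene and column, in whole numbers and with no normalization by the authors. Per the submitters' processing notes, reads were trimmed with Trim Galore 0.4.4 and aligned with HISAT2 2.1.0 to GRCm39, and DESeq2 was used, with no version given. The counting tool, its annotation and whether strand was used are not given in the sources used here, so overlapping and antisense genes cannot be told apart. Of 36983 entries, 48 repeated a symbol and were summed into it, which left 36935 symbols, and 33912 of these were found in a reference table of gene names. The table had 0 columns without a matching sample, and no entry named anything but a gene. Libraries other than the negative controls are labelled as single cells, and doublets were not searched for.

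CPM were computed from each column's total count. A class level was its summed counts over its summed totals, ratios carry exact conditional binomial intervals of 95%, and a class with no counts would be set to a floor of 3 counts. The computation of the ratio and its interval was checked on simulated counts with counting error only. All libraries of a class had the same rate there, so the check cannot show how intervals hold for libraries that vary. Lengths came from GENCODE M21 by symbol (52 of 52 members), and no coordinates were joined to the counts because that annotation is of an earlier build than the authors'. Comparisons numbered 5: the classes, and genotype labels within each class and within each stage label. The class comparison was also made inside 2 labels. The members, roles and lists were chosen with earlier results of these data known. The values of 1 member that was within 2-fold between the classes are not reported here. Each member at least 2-fold apart between the classes was described with its range, with the highest and lowest of each role, of each list and, for genotype labels, the 3 highest and 3 lowest. Alternatives were other scalings (edgeR 4.0.16 TMM, DESeq2 1.42.0 size factors), per-library medians and means, other filters and cuts, and leaving out each library. Python 3.11.15, numpy 2.4.6, pandas 2.3.3, scipy 1.17.1, matplotlib 3.10.9 and R 4.3.3 were used.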

Additional observations from a re-analysis of the deposited data

How the results depend on the processing

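Between the classes, the members' median log2 ratio (0.17) ranged from -0.14 (DESeq2 size factors) to 0.39 (without libraries at 0.2% cumulus markers) and was below 0 only with DESeq2 and TMM; the count of 12 lower members stayed within 1.5 times under the alternatives run. The 10 higher members became 5 with TMM and 5 with DESeq2 size factors (Lsm2, Prpf4, Snrpc, Snrpe and Snrpf), 16 without libraries at 0.2% cumulus markers, 17 within 2cell_mut columns and 19 at a fold of 1.5. Scaling moved the median of all genes by -0.24 (TMM) and -0.34 (DESeq2), and the share of higher among all genes past 2-fold from 43.0% to 33.4% and 29.2% (per-library medians: 30.7%), while without libraries at 0.2% cumulus markers it was 54.4%. The members' median was then -0.05 against -0.32 for all genes with TMM, and -0.14 against -0.42 with DESeq2. Snrpd2 reversed, to 0.39 without libraries at 0.2% cumulus markers (a cut chosen after seeing the data) and to 1.42 within 2cell_mut columns. Snrpb, just inside 2-fold, went from -0.99 to 1.24 at the same cut and to 1.91 within 2cell_mut columns. Among members past 2-fold between the classes, no other changed its direction under the alternatives run.

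Within oocyte-like libraries the 6 lower members became 3 by per-library medians and 4 by means, and 2 at the 0.2% cumulus cut. Within 2-cell-like libraries the 5 higher became 3 by medians and 8 at a fold of 1.5, and the 3 lower became 6 and 10. Leaving out 1 library gave 3 (library 8) to 7 (library 7) higher and 2 (library 5) to 5 (library 4) lower. Among columns labelled oocyte the 4 higher became 7 by medians, 1 with TMM, 7 at the 0.2% cumulus cut and 13 at a fold of 1.5, and 3 (library 38) to 7 (library 43) without 1 library, while the 11 lower became 17 with TMM and 18 at a fold of 1.5. Among columns labelled 2-cell the 4 higher became 8 by means, 2 with TMM, 1 with DESeq2 and 12 at a fold of 1.5, and 2 (library 51) to 5 (library 61) without 1 library. The 1 lower became 5 by medians, 2 by means, 2 with TMM, 2 with DESeq2, 2 with no gene filter, 6 without libraries at 0.5% cumulus markers and 6 at a fold of 1.5, and 0 (library 59) to 6 (library 86) without 1 library. Among all genes, the share of higher among those past 2-fold went from 74.6% to 54.3% by medians within 2-cell-like libraries, from 42.4% to 31.3% with TMM and 32.4% by medians among columns labelled oocyte, and from 40.0% to 26.2% with DESeq2 and 15.9% by medians among columns labelled 2-cell, where it was 67.3% without libraries at 0.2% cumulus markers. The same cut moved it from 2.64% to 22.7% within oocyte-like libraries. No paired analysis was possible because each label number belongs to 1 library and the result comes from no test.

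Prpf40b, Srsf9 and Srsf12 were under the filter of 10 CPM in both classes, Srsf9 only just (9.17 and 9.15 CPM pooled). Low members are at 0 in single libraries, and the part of depth in this was not tested.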
